A study of Homo sapiens with 4 samples.

Results

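The genes described here encode the machinery of autophagy and the lysosome. They were taken by gene symbol from a list of core autophagy factors, cargo receptors, the TFEB family, lysosomal hydrolases and lysosomal membrane proteins. All 50 symbols of the list were found among the 25343 genes of each table, and they were sorted into 11 roles that hold 30 autophagy genes, 3 genes of the TFEB family and 17 lysosomal genes.

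RNA-seq was made from 4 libraries of 2 human hepatocellular carcinoma lines, Huh7 and PLC/PRF/5. Each line carried either a lentiviral short hairpin RNA against SCD1, labelled shSCD1, or a non-target control hairpin, labelled NTC, with 1 library in each of the 4 groups. All cells were stably transduced, selected with puromycin and grown in DMEM-HG with fetal bovine serum, and the labels name a single SCD1 hairpin and no rescue. SCD1, the product of the gene SCD, puts a double bond into saturated fatty acids. The groups answer how knockdown differs from control in each line and how the lines differ.

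Autophagy wraps cytoplasm in a double membrane that closes and fuses with the lysosome. The ULK1 complex starts it, the class III phosphatidylinositol 3-kinase complex makes the lipid that marks the membrane, and a conjugation machinery attaches ATG8 proteins to that membrane, where cargo receptors bind them. Lysosomal hydrolases then digest the content at the low pH kept by the V-ATPase. TFEB, TFE3 and MITF are related transcription factors that activate many lysosomal genes through a motif built on the letters CACGTG. In hepatocytes autophagy is known for turning over lipid droplets, among other cargo.

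That motif was looked for in RefSeq promoters of build GRCh38.p14, each 300 bases long with 250 bases before the gene's start and 50 after it. Of the 50 genes, 41 had a promoter in the table, and RB1CC1, UVRAG, MAP1LC3A, BNIP3L, CTSB, HEXA, LAMP2, ATP6V1A and ATP6V1H had none there. The search used CACGTG, which reads the same on both strands, and the longer TCACGTG on either strand, which contains it. TCACGTG was found in 6 of 12 lysosomal genes (50%) and in 1 of 29 autophagy and TFEB-family genes (3.45%), against 739 of the 10105 genes tested below that had a promoter (7.31%). In wider lists described further below, TCACGTG was found in 6 of 23 lysosomal hydrolases (26.1%), 5 of 17 lysosomal membrane and sorting genes (29.4%) and 3 of 16 V-ATPase genes (18.8%). It was also found in 6 of 16 nutrient-sensing genes (37.5%), 3 of 9 fusion genes (33.3%), 2 of 17 autophagy machinery genes (11.8%) and 0 of 10 receptors. CACGTG alone was found in the same 7 of the 50 genes, and in 12.7% of the tested genes. The stretches that hold it are shown for all 7 genes because they are what separates them from the other listed genes with a promoter in the table. Each is written 5′ to 3′ on the gene's strand with 20 bases on either side, and capitals mark CACGTG. The motif stands 6 times in the stretch of LAMP1, 2 times in those of ATG3, CTSA and MCOLN1, and 1 time in those of CTSD, NEU1 and ATP6V0D1. ATG3 lies at chr3:112561932-112562000 on the minus strand, CTSA at chr20:45891273-45891335 on the plus strand, CTSD at chr11:1763949-1763994 on the minus strand, and NEU1 at chr6:31862922-31862967 on the minus strand. LAMP1 lies at chr13:113297027-113297263 on the plus strand, MCOLN1 at chr19:7522563-7522635 on the plus strand, and ATP6V0D1 at chr16:67481191-67481236 on the minus strand.
ATG3: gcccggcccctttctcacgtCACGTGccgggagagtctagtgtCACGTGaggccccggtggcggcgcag
CTSA: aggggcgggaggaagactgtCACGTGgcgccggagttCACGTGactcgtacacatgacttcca
CTSD: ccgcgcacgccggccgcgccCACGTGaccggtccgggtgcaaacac
NEU1: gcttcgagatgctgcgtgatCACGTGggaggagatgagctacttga
LAMP1: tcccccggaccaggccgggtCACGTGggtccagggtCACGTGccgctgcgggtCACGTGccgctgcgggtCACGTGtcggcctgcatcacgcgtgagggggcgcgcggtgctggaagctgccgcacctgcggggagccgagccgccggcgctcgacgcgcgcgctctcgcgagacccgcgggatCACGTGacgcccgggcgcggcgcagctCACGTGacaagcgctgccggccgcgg
MCOLN1: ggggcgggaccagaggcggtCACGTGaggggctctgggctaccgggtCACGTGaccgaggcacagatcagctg
ATP6V0D1: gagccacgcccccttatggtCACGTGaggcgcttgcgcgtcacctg

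Levels are in TPM, a unit of transcript abundance scaled for gene length and library, so genes can be set beside each other. SCD, the gene aimed at, stood at 137 TPM in the Huh7 shSCD1 library against 1755 TPM in Huh7 NTC, and at 178 TPM in PLC/PRF/5 shSCD1 against 1111 TPM in PLC/PRF/5 NTC. Hepatocyte markers summed over 9 genes came to 27497 TPM in Huh7 shSCD1 against 30336 TPM in Huh7 NTC. In that line ALB, FGB and HNF4A were higher in shSCD1 and the others lower. ALB had 10479 TPM in Huh7 shSCD1 against 6498 TPM in Huh7 NTC, and AFP 10302 TPM against 15421 TPM. In PLC/PRF/5 the sum was 3315 TPM in shSCD1 against 4905 TPM in NTC, and TTR was under 1 TPM in both libraries. Of 6 macrophage and leukocyte markers, PTPRC, CD163, CSF1R and TYROBP were under 1 TPM in every library, CD14 reached at most 2.81 TPM, and LYZ lay between 1008 and 2600 TPM. The 3 biliary markers, led by KRT19, summed to 695 TPM in Huh7 shSCD1 against 324 TPM in Huh7 NTC, and to 8.66 TPM in PLC/PRF/5 shSCD1 against 4.51 TPM in PLC/PRF/5 NTC. The 5 fibroblast and stellate markers summed to 17.6 TPM in Huh7 shSCD1 against 45.0 TPM in Huh7 NTC, and to 1.78 TPM in PLC/PRF/5 shSCD1 against 3.24 TPM in PLC/PRF/5 NTC, and the 4 endothelial markers to at most 3.40 TPM in any library. The part of the hepatocyte, biliary and fibroblast markers in the results was not tested.

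With 1 library per group, a fold change within a line has no replicate check. It is given as log2((TPM + 1)/(TPM + 1)) of knockdown over control, which understates the change of genes with few transcripts, and a gene was considered in a line where it had at least 1 TPM in 1 of that line's libraries. In bulk libraries fewer expressing cells and less RNA per cell cannot be told apart. In Huh7, the shSCD1 library was higher by 1.5-fold or more for 7 of the 49 genes considered (14.3%), where 9.91% of all genes were, and 1 was at least 1.5-fold lower (2.04%), where 4.86% of all genes were. At least 2-fold higher were OPTN and CTSA, or 4.08% of the genes against 3.1% of all genes, and no gene was 2-fold lower, where 1.54% of all genes were. The 7 genes were MAP1LC3A, MAP1LC3B, SQSTM1, OPTN, CTSA, CTSD and CTSH, and the 1 lower gene was TFEB. In PLC/PRF/5, 3 of 47 genes were at least 1.5-fold higher in shSCD1 (6.38%), where 8.13% of all genes were, and 1 was lower (2.13%), where 4.02% of all genes were. These were CTSH, ATG101 and MAP1LC3B on the higher side and BNIP3L on the lower side, and none reached 2-fold, which 1.72% of all genes did upwards and 1.12% downwards. These shares lie near those of all genes.

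The median log2 fold change was 0.22 over the genes in Huh7 against 0.08 over all genes, and 0.07 in PLC/PRF/5 against 0.10 over all genes. Scaling the libraries by the median of ratios moved the median of all genes by -0.09 in Huh7 and by -0.13 in PLC/PRF/5, and the median of the listed genes was then 0.13 in Huh7 and -0.08 in PLC/PRF/5. The fold change was above 0 for 38 of 49 genes in Huh7 (77.6%, and 60.2% of all genes) and for 30 of 47 in PLC/PRF/5 (63.8%, and 63.4% of all genes). In Huh7, 34 of 49 genes lay above the median of all genes, and in PLC/PRF/5 20 of 47 did. Of the 46 genes considered in both lines, 27 were higher in shSCD1 in both (58.7%, and 46.5% of all genes), 9 were lower in both (19.6%, and 22.4% of all genes) and 10 had opposite signs (21.7%, and 31% of all genes). After scaling, those counts were 16, 15 and 15. Scaling moved all genes too, and their shares by sign after it are not given, here or for the wider lists below. At least 1.5-fold higher in both lines were 2 genes, CTSH and MAP1LC3B, which is 4.35% of the genes and 2.24% of all genes, and no gene was 1.5-fold lower in both, where 1.14% of all genes were. After scaling only CTSH was still 1.5-fold higher in both, or 2.17% of the genes and 1.4% of all genes.

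**Figure D1:**
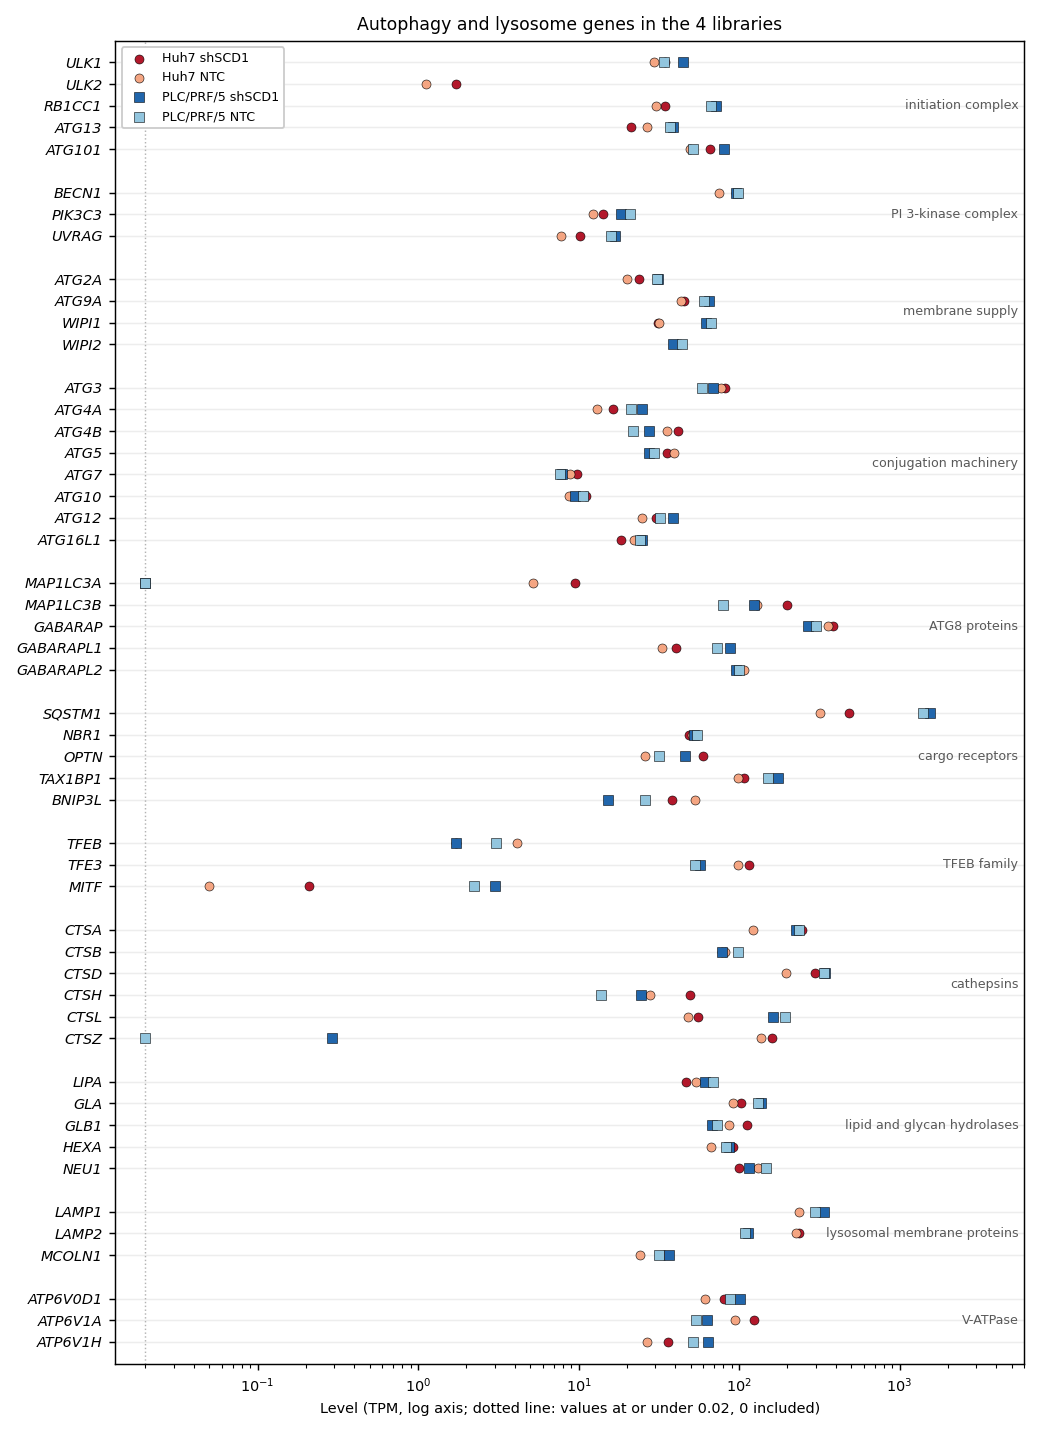
TPM of each of the 50 genes in the 4 libraries on a log axis, ordered by role, with 1 point per library. SQSTM1 is the highest point, at 1550 TPM in PLC/PRF/5 shSCD1, and CTSZ and MAP1LC3A are at or near 0 in PLC/PRF/5 but not in Huh7.

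Across both lines, knockdown was set against control with limma over 13813 genes on log2(TPM + 1), arm and line being the terms of the model. None of the 50 genes passed an adjusted p of 0.05 after Benjamini-Hochberg correction in limma, where 0% of all genes passed upwards and 0.00724% downwards. At an unadjusted p under 0.05 in limma, 11 of the 50 were higher in shSCD1 (22%, and 12.7% of all genes) and 3 were lower (6%, and 5.24% of all genes). The 11 were ATG101, MAP1LC3B, GABARAPL1, SQSTM1, OPTN, CTSH, LAMP1, MCOLN1, ATP6V0D1, ATP6V1A and ATP6V1H, and the 3 were BNIP3L, TFEB and NEU1. After median-ratio scaling the counts were 4 and 5, and the shares of all genes after it are not given. This fit has 1 residual degree of freedom of its own, so the spread is largely borrowed from all genes, and a difference between the lines in the response to knockdown could not be tested.

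**Figure D2:**
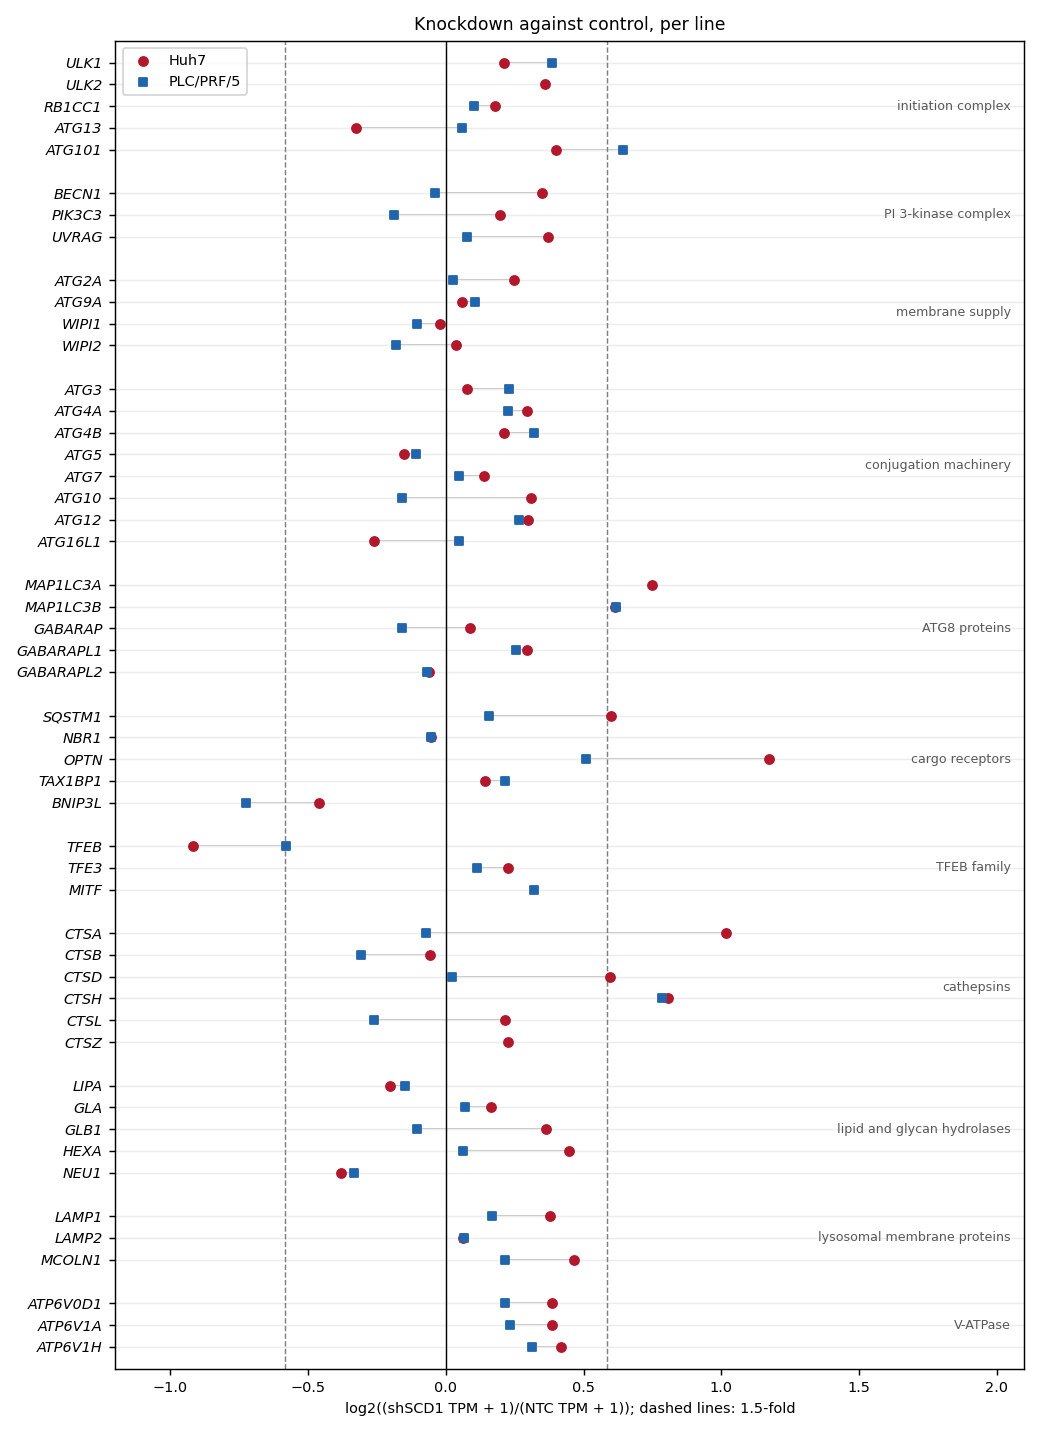
Log2 fold change of knockdown over control of each gene in Huh7 and in PLC/PRF/5, on the log2(TPM + 1) scale, grouped by role, with dashed lines at 1.5-fold. The V-ATPase genes lie above 0 in both lines, and the cathepsins spread between 1.02 for CTSA in Huh7 and -0.31 for CTSB in PLC/PRF/5.

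The kinase complex that starts autophagy was little apart between the arms except for ATG101. ULK1, its kinase, had 34.5 TPM in Huh7 shSCD1 against 29.7 TPM in Huh7 NTC, and 44.9 TPM in PLC/PRF/5 shSCD1 against 34.2 TPM in PLC/PRF/5 NTC, log2 fold changes of 0.21 and 0.38. ATG101, which stabilises ATG13 in the complex, had 65.6 TPM in Huh7 shSCD1 against 49.5 TPM in Huh7 NTC, and 80.8 TPM in PLC/PRF/5 shSCD1 against 51.5 TPM in PLC/PRF/5 NTC. Both shSCD1 libraries lay above both NTC libraries, with log2 fold changes of 0.40 and 0.64 and a mean of 0.52 (SE 0.11, limma adjusted p = 0.178 by Benjamini-Hochberg). ATG13, the regulatory subunit, had 21.2 TPM in Huh7 shSCD1 against 26.9 TPM in Huh7 NTC, a log2 fold change of -0.33, and 38.7 TPM in PLC/PRF/5 shSCD1 against 37.1 TPM in PLC/PRF/5 NTC, a log2 fold change of 0.06. RB1CC1, the scaffold of the complex, differed by a log2 of 0.18 in Huh7 and 0.10 in PLC/PRF/5. ULK2, a second kinase, had 1.72 TPM in Huh7 shSCD1 against 1.12 TPM in Huh7 NTC and was at 0.03 TPM in PLC/PRF/5 shSCD1 and 0.01 TPM in PLC/PRF/5 NTC.

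None of the 3 listed genes of the lipid kinase complex reached 1.5-fold in either line. BECN1, its scaffold, had 96.0 TPM in Huh7 shSCD1 against 75.1 TPM in Huh7 NTC, and 95.5 TPM in PLC/PRF/5 shSCD1 against 98.1 TPM in PLC/PRF/5 NTC. Its catalytic subunit PIK3C3 had 14.2 TPM in Huh7 shSCD1 against 12.3 TPM in Huh7 NTC, and 18.4 TPM in PLC/PRF/5 shSCD1 against 21.1 TPM in PLC/PRF/5 NTC. UVRAG, a subunit of the form that acts on endosomes and late steps, had a log2 fold change of 0.37 in Huh7 and 0.08 in PLC/PRF/5. All 3 thus lay above the median of all genes in Huh7 and below it in PLC/PRF/5. Among the genes that supply membrane and lipid, the lipid transfer protein ATG2A, the scramblase ATG9A and the phosphoinositide-binding WIPI1 and WIPI2 had log2 fold changes between -0.02 and 0.25 in Huh7 and between -0.18 and 0.11 in PLC/PRF/5.

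The 8 conjugation genes attach ATG8 proteins to lipid and trim or remove them, and none reached 1.5-fold. The protease ATG4B had 41.5 TPM in Huh7 shSCD1 against 35.7 TPM in Huh7 NTC, and 27.4 TPM in PLC/PRF/5 shSCD1 against 21.8 TPM in PLC/PRF/5 NTC. ATG12, the ubiquitin-like protein joined to ATG5, had 30.6 TPM in Huh7 shSCD1 against 24.7 TPM in Huh7 NTC, and 39.0 TPM in PLC/PRF/5 shSCD1 against 32.3 TPM in PLC/PRF/5 NTC, log2 fold changes of 0.30 and 0.27. Its partner ATG5 was lower in both lines, at 35.4 TPM in Huh7 shSCD1 against 39.4 TPM in Huh7 NTC, and 27.5 TPM in PLC/PRF/5 shSCD1 against 29.7 TPM in PLC/PRF/5 NTC, log2 fold changes of -0.15 and -0.11. ATG16L1, which brings that pair to the membrane, had -0.26 in Huh7 and 0.05 in PLC/PRF/5 on the log2 scale. The conjugating enzyme ATG10 stood at 0.31 and -0.16 on the log2 scale, and the protease ATG4A had 0.30 and 0.22. The activating enzyme ATG7 and the conjugating enzyme ATG3 lay between 0.05 and 0.23 in both lines.

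Of the ATG8 proteins, which coat the growing membrane, MAP1LC3B reached 1.5-fold in both lines and MAP1LC3A in Huh7. MAP1LC3B had 199 TPM in Huh7 shSCD1 against 130 TPM in Huh7 NTC, and 123 TPM in PLC/PRF/5 shSCD1 against 79.9 TPM in PLC/PRF/5 NTC. The shSCD1 library of each line lay above its own control, by nearly the same log2 fold change, 0.61 in Huh7 and 0.62 in PLC/PRF/5. Its mean was 0.62 (SE 0.09), with a limma adjusted p of 0.129 by Benjamini-Hochberg, which ran between 0.104 and 1 over the alternatives. MAP1LC3B shares 9.43% of its 31-base words with other genes, among them the retrogene MAP1LC3B2, listed at 3.17 TPM in Huh7 shSCD1 against 1.39 TPM in Huh7 NTC, and 1.64 TPM in PLC/PRF/5 shSCD1 against 1.02 TPM in PLC/PRF/5 NTC. After median-ratio scaling its log2 fold changes were 0.52 and 0.47, under 1.5-fold in both lines. MAP1LC3A had 9.44 TPM in Huh7 shSCD1 against 5.22 TPM in Huh7 NTC, a log2 fold change of 0.75, and was listed at 0 in both PLC/PRF/5 libraries. GABARAPL1 was higher by a log2 of 0.29 in the Huh7 knockdown and of 0.25 in the PLC/PRF/5 knockdown. GABARAPL2 had 103 TPM in Huh7 shSCD1 against 108 TPM in Huh7 NTC, and 95.1 TPM in PLC/PRF/5 shSCD1 against 99.7 TPM in PLC/PRF/5 NTC. GABARAP, with the highest level of the family, had 383 TPM in Huh7 shSCD1 against 361 TPM in Huh7 NTC, and 270 TPM in PLC/PRF/5 shSCD1 against 302 TPM in PLC/PRF/5 NTC.

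The cargo receptors include the largest differences among the autophagy genes in Huh7, upwards for OPTN and downwards for BNIP3L, and the largest downwards in PLC/PRF/5, where ATG101 and MAP1LC3B stood above OPTN upwards. OPTN, a receptor for ubiquitinated mitochondria and bacteria, had 59.9 TPM in Huh7 shSCD1 against 26.0 TPM in Huh7 NTC, and 45.8 TPM in PLC/PRF/5 shSCD1 against 31.9 TPM in PLC/PRF/5 NTC. Both shSCD1 libraries lay above both NTC libraries, with log2 fold changes of 1.17 and 0.51 and a mean of 0.84 (SE 0.19, limma adjusted p = 0.181 by Benjamini-Hochberg). SQSTM1, the p62 receptor for ubiquitinated cargo, had 484 TPM in Huh7 shSCD1 against 319 TPM in Huh7 NTC, and 1550 TPM in PLC/PRF/5 shSCD1 against 1392 TPM in PLC/PRF/5 NTC, log2 fold changes of 0.60 and 0.16. BNIP3L, a receptor in the mitochondrial outer membrane, went the other way, with 38.4 TPM in Huh7 shSCD1 against 53.2 TPM in Huh7 NTC, and 15.3 TPM in PLC/PRF/5 shSCD1 against 26.0 TPM in PLC/PRF/5 NTC. Its log2 fold changes were -0.46 and -0.73, with a mean of -0.59 (SE 0.13, limma adjusted p = 0.181 by Benjamini-Hochberg). Of the remaining receptors, NBR1 had 48.8 TPM in Huh7 shSCD1 against 50.7 TPM in Huh7 NTC, and 52.6 TPM in PLC/PRF/5 shSCD1 against 54.7 TPM in PLC/PRF/5 NTC. TAX1BP1 had 108 TPM in Huh7 shSCD1 against 97.9 TPM in Huh7 NTC, and 176 TPM in PLC/PRF/5 shSCD1 against 151 TPM in PLC/PRF/5 NTC.

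**Figure D3:**
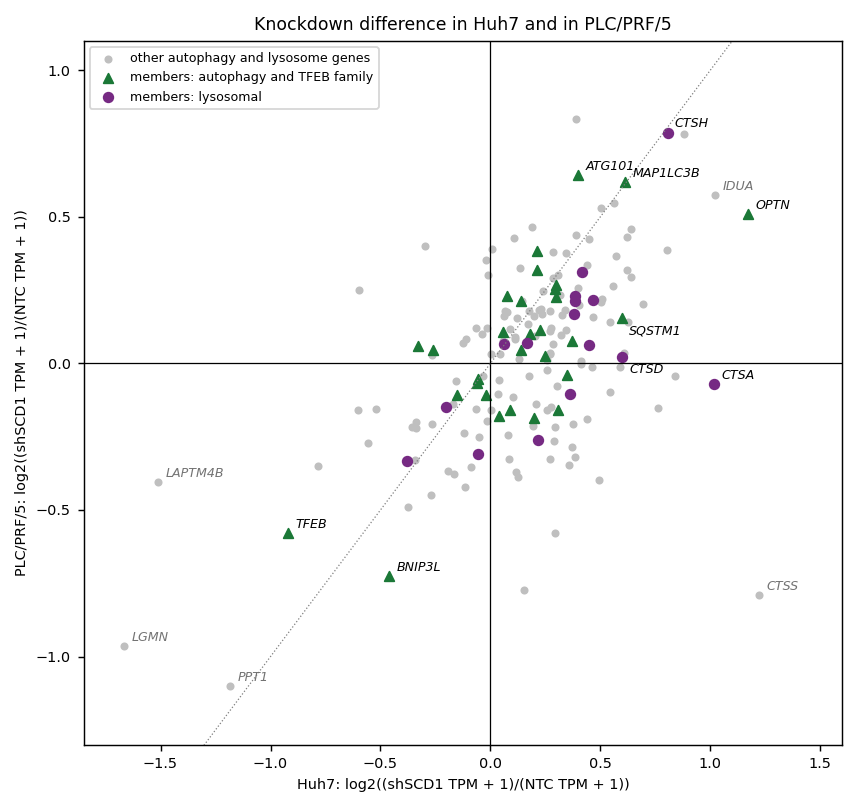
Log2 fold change of knockdown over control in PLC/PRF/5 against that in Huh7, with 1 point per gene considered in both lines. Grey points are other autophagy and lysosome genes, described further below. Among the listed genes, CTSH and MAP1LC3B are the points with at least 1.5-fold in both lines. TFEB, BNIP3L and NEU1 lie lowest among the listed genes below 0 in both, and CTSA sits at 1.02 in Huh7 and -0.07 in PLC/PRF/5. Of the grey points, LGMN and PPT1 lie lower than TFEB, BNIP3L and NEU1 in both lines, and SMPD1 is over 1.5-fold higher in both.

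Within the TFEB family the transcript of TFEB itself was low. It had 1.73 TPM in Huh7 shSCD1 against 4.16 TPM in Huh7 NTC, and 1.73 TPM in PLC/PRF/5 shSCD1 against 3.08 TPM in PLC/PRF/5 NTC. Both shSCD1 libraries lay below both NTC libraries, with log2 fold changes of -0.92 and -0.58 and a mean of -0.75 (SE 0.20, limma adjusted p = 0.206 by Benjamini-Hochberg). At a pseudocount of 0.1 TFEB was over 2-fold lower in Huh7, and at a pseudocount of 5 it was under 1.5-fold lower. TFE3 was the most abundant of the family, with 116 TPM in Huh7 shSCD1 against 98.8 TPM in Huh7 NTC, and 57.3 TPM in PLC/PRF/5 shSCD1 against 52.9 TPM in PLC/PRF/5 NTC. MITF was at 0.21 and 0.05 TPM in Huh7 shSCD1 and NTC, and had 3.02 TPM in PLC/PRF/5 shSCD1 against 2.22 TPM in PLC/PRF/5 NTC.

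Among the cathepsins, proteases of the lysosome, CTSH was higher in the knockdown of both lines. It had 49.5 TPM in Huh7 shSCD1 against 27.9 TPM in Huh7 NTC, and 24.5 TPM in PLC/PRF/5 shSCD1 against 13.8 TPM in PLC/PRF/5 NTC. The log2 fold changes were 0.81 and 0.79, with a mean of 0.80 (SE 0.12, limma adjusted p = 0.141 by Benjamini-Hochberg). CTSA, which also protects the sialidase NEU1 and the galactosidase GLB1 in a complex, had 247 TPM in Huh7 shSCD1 against 122 TPM in Huh7 NTC, and 225 TPM in PLC/PRF/5 shSCD1 against 237 TPM in PLC/PRF/5 NTC. The Huh7 NTC library was thus low, and the other libraries lay between 225 and 247 TPM. CTSD, an aspartic protease, likewise had 298 TPM in Huh7 shSCD1 against 197 TPM in Huh7 NTC, and 342 TPM in PLC/PRF/5 shSCD1 against 337 TPM in PLC/PRF/5 NTC. The cysteine protease CTSL had 55.8 TPM in Huh7 shSCD1 against 47.9 TPM in Huh7 NTC, and 162 TPM in PLC/PRF/5 shSCD1 against 194 TPM in PLC/PRF/5 NTC, and CTSB had 78.4 TPM in Huh7 shSCD1 against 81.7 TPM in Huh7 NTC, and 78.9 TPM in PLC/PRF/5 shSCD1 against 98.0 TPM in PLC/PRF/5 NTC. CTSZ, a carboxypeptidase, had 161 TPM in Huh7 shSCD1 against 138 TPM in Huh7 NTC, and in PLC/PRF/5 it had 0.29 TPM in shSCD1 and was listed at 0 in NTC. Summed, the 6 cathepsins came to 890 TPM in Huh7 shSCD1 against 614 TPM in Huh7 NTC, and to 833 TPM in PLC/PRF/5 shSCD1 against 880 TPM in PLC/PRF/5 NTC.

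The hydrolases of lipids and glycans had no difference of 1.5-fold. NEU1, the lysosomal sialidase, had 101 TPM in Huh7 shSCD1 against 131 TPM in Huh7 NTC, and 116 TPM in PLC/PRF/5 shSCD1 against 146 TPM in PLC/PRF/5 NTC. Both shSCD1 libraries lay below both NTC libraries, with log2 fold changes of -0.38 and -0.33 and a mean of -0.36 (SE 0.09, limma adjusted p = 0.191 by Benjamini-Hochberg). LIPA, the acid lipase that splits cholesteryl esters and triglycerides, had 46.8 TPM in Huh7 shSCD1 against 54.0 TPM in Huh7 NTC, and 61.7 TPM in PLC/PRF/5 shSCD1 against 68.6 TPM in PLC/PRF/5 NTC, log2 fold changes of -0.20 and -0.15. HEXA, a subunit of hexosaminidase, had 91.9 TPM in Huh7 shSCD1 against 67.1 TPM in Huh7 NTC, and 86.1 TPM in PLC/PRF/5 shSCD1 against 82.4 TPM in PLC/PRF/5 NTC. GLB1, a beta-galactosidase, had 112 TPM in Huh7 shSCD1 against 86.9 TPM in Huh7 NTC, and 67.6 TPM in PLC/PRF/5 shSCD1 against 72.9 TPM in PLC/PRF/5 NTC. The alpha-galactosidase GLA had 102 TPM in Huh7 shSCD1 against 91.3 TPM in Huh7 NTC, and 138 TPM in PLC/PRF/5 shSCD1 against 131 TPM in PLC/PRF/5 NTC. HEXA, GLB1 and GLA were thus higher in the Huh7 knockdown, while in PLC/PRF/5 their log2 fold changes lay between -0.11 and 0.07.

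The 3 lysosomal membrane genes and the 3 V-ATPase genes were all higher in shSCD1 in both lines, as were 46.5% of all genes. After median-ratio scaling LAMP2 stood at -0.04 in Huh7 and -0.08 in PLC/PRF/5 on the log2 scale. The others then lay between 0.28 and 0.37 in Huh7 and between 0.02 and 0.17 in PLC/PRF/5. LAMP1, a glycoprotein that lines the membrane, had 310 TPM in Huh7 shSCD1 against 238 TPM in Huh7 NTC, and 336 TPM in PLC/PRF/5 shSCD1 against 299 TPM in PLC/PRF/5 NTC. LAMP2 had 235 TPM in Huh7 shSCD1 against 225 TPM in Huh7 NTC, and 114 TPM in PLC/PRF/5 shSCD1 against 109 TPM in PLC/PRF/5 NTC. The calcium channel MCOLN1 had 33.9 TPM in Huh7 shSCD1 against 24.2 TPM in Huh7 NTC, and 36.7 TPM in PLC/PRF/5 shSCD1 against 31.5 TPM in PLC/PRF/5 NTC. The V-ATPase pumps protons into the lysosome with a membrane sector and a catalytic sector. ATP6V0D1 of the membrane sector had 80.4 TPM in Huh7 shSCD1 against 61.3 TPM in Huh7 NTC, and 102 TPM in PLC/PRF/5 shSCD1 against 87.5 TPM in PLC/PRF/5 NTC. ATP6V1A, the catalytic subunit, had 123 TPM in Huh7 shSCD1 against 94.3 TPM in Huh7 NTC, and 63.2 TPM in PLC/PRF/5 shSCD1 against 53.7 TPM in PLC/PRF/5 NTC. ATP6V1H had 36.2 TPM in Huh7 shSCD1 against 26.9 TPM in Huh7 NTC, and 64.2 TPM in PLC/PRF/5 shSCD1 against 51.5 TPM in PLC/PRF/5 NTC. Their log2 fold changes lay between 0.38 and 0.42 in Huh7 and between 0.21 and 0.31 in PLC/PRF/5, and limma's adjusted p by Benjamini-Hochberg was 0.220 or more for each.

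The 17 lysosomal genes had a median log2 fold change of 0.38 in Huh7, and the 16 of them considered in PLC/PRF/5 had one of 0.06. Over the autophagy genes the medians were 0.20 for 30 genes in Huh7 and 0.07 for 28 genes in PLC/PRF/5. Median-ratio scaling turned both PLC/PRF/5 medians below 0, to -0.08 for the lysosomal and -0.07 for the autophagy genes, and left those of Huh7 at 0.28 and 0.11. The log2 fold change, sign included, was the higher in Huh7 for 13 of the 16 lysosomal genes considered in both lines (81.2%, and 45.3% of all genes). That count carries no test. Lysosomal genes whose promoter holds TCACGTG, printed above, had a median log2 fold change over 6 genes of 0.43 in Huh7 and, over the same genes, of 0.09 in PLC/PRF/5, among them NEU1, which was lower in both lines. Those with a promoter without it had medians of 0.22 over 6 genes in Huh7 and -0.11 over 5 genes in PLC/PRF/5. With the other lysosomal genes added, the medians in Huh7 were 0.28 for 20 genes with the motif and 0.23 for 44 without it, and in PLC/PRF/5 -0.07 for 20 with it and 0.03 for 42 without it. These are descriptions of the letters in the promoters and carry no test.

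**Figure D4:**
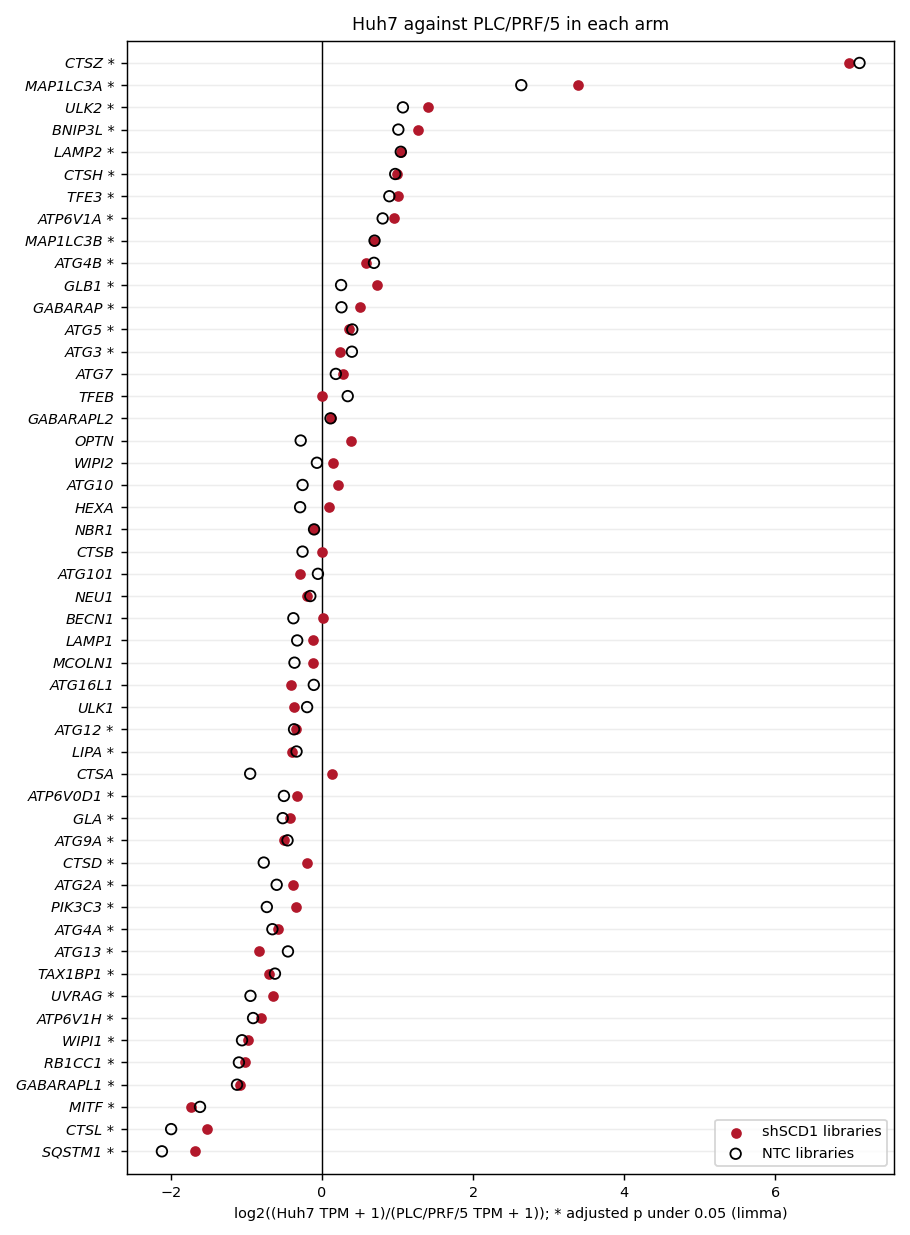
Log2 difference of Huh7 minus PLC/PRF/5 for each gene on the log2(TPM + 1) scale, with 1 point for the shSCD1 libraries and 1 for the NTC libraries. An asterisk marks a limma adjusted p under 0.05 by Benjamini-Hochberg. By their mean over the arms, which is not drawn, SQSTM1 at -1.90 and CTSL at -1.76 lie farthest on the side of PLC/PRF/5 among genes well above 0 in both lines. BNIP3L at 1.14 and LAMP2 at 1.04 do so on the side of Huh7.

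More of the genes differed between the lines than between the arms. With the same limma fit, in which the shSCD1 and NTC libraries of a line stand for that line, 14 of the 50 genes were higher in Huh7 than in PLC/PRF/5 at an adjusted p under 0.05 by Benjamini-Hochberg (28%, and 28.3% of all genes) and 19 were lower in Huh7 (38%, and 31.5% of all genes). ULK2, MAP1LC3A, MITF and CTSZ are among these but were considered in 1 line only, which leaves 11 and 18 genes. Of the 33 genes, 8 higher and 12 lower in Huh7 passed under every alternative in which they were tested. ULK2, MAP1LC3A and CTSZ, higher in Huh7, and MITF, lower in Huh7, are among these although they were considered in 1 line only. The levels of ULK2 and MITF were too low for the alternative that asked for at least 5 TPM. The shares of 28% and 38% in the main fit are near those of all genes. For the genes that passed under every alternative, the share of all genes is not given.

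CTSZ, with 161 TPM (shSCD1) and 138 TPM (NTC) in Huh7 against 0.29 TPM (shSCD1) and a listed 0 (NTC) in PLC/PRF/5, together with MAP1LC3A and ULK2, was close to absent from the PLC/PRF/5 libraries. LAMP2 was higher in Huh7 by a log2 of 1.04 (SE 0.08, limma adjusted p = 0.000985 by Benjamini-Hochberg), and for LAMP1 the log2 difference was -0.22 (SE 0.09) and did not pass; the contrast between LAMP1 and LAMP2 was not tested. BNIP3L was higher in Huh7 by a log2 of 1.14 (SE 0.13, limma adjusted p = 0.00227 by Benjamini-Hochberg), with 38.4 TPM (shSCD1) and 53.2 TPM (NTC) in Huh7 against 15.3 TPM (shSCD1) and 26.0 TPM (NTC) in PLC/PRF/5. CTSH by 0.98, TFE3 by 0.95 and ATP6V1A by 0.88 on the log2 scale were the next on that side in limma. CTSH did not pass under every alternative.

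On the side of PLC/PRF/5, SQSTM1 had 484 TPM (shSCD1) and 319 TPM (NTC) in Huh7 against 1550 TPM (shSCD1) and 1392 TPM (NTC) in PLC/PRF/5, a log2 difference of Huh7 minus PLC/PRF/5 of -1.90 (SE 0.13, limma adjusted p = 0.000696 by Benjamini-Hochberg). CTSL had 55.8 TPM (shSCD1) and 47.9 TPM (NTC) in Huh7 against 162 TPM (shSCD1) and 194 TPM (NTC) in PLC/PRF/5, a difference of -1.76 (SE 0.14, limma adjusted p = 0.000993 by Benjamini-Hochberg). GABARAPL1 differed by -1.11, RB1CC1 by -1.06, WIPI1 by -1.02, ATP6V1H by -0.86 and UVRAG by -0.80 on the log2 scale, and each passed under every alternative. Members of 1 complex thus stood on opposite sides, as ATP6V1A and ATP6V1H of the V-ATPase did. MITF, under 1 TPM in Huh7, differed by -1.67. Genes with no difference between the lines past the test included ULK1, BECN1, TFEB, CTSA, CTSB and LAMP1, which does not show that their levels are alike.

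Some of these levels can hold reads of other genes. By 31-base words, GABARAP shared 74.2%, CTSD 60.9%, SQSTM1 51.7%, CTSA 45.5%, ATG9A 45.1% and ATG101 41.6% of its annotated transcript sequence with other annotated genes, counting overlapping and read-through genes. How the reads of such words were divided between the genes was not tested.

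A wider list of 142 other genes of the same pathways gives the setting. In Huh7, 14 of 135 considered were at least 1.5-fold higher in shSCD1 (10.4%, and 9.91% of all genes) and 6 were lower (4.44%, and 4.86% of all genes). In PLC/PRF/5, 2 of 134 were higher (1.49%, and 8.13% of all genes) and 4 were lower (2.99%, and 4.02% of all genes). Across both lines none of 136 tested passed limma's adjusted p by Benjamini-Hochberg. At an unadjusted p under 0.05 in limma, 20 were higher (14.7%, and 12.7% of all genes) and 10 lower (7.35%, and 5.24% of all genes). The median log2 fold change of the whole list was 0.20 in Huh7 and 0.05 in PLC/PRF/5, and 0.11 and -0.09 after median-ratio scaling.

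Of 19 further autophagy machinery genes, 15 were higher in shSCD1 in both lines (78.9%, and 46.5% of all genes) and 3 were lower in both (15.8%, and 22.4% of all genes). After median-ratio scaling 11 were higher and 3 lower in both. WDR45, a WIPI relative, had 58.0 TPM in Huh7 shSCD1 against 40.7 TPM in Huh7 NTC, and 72.4 TPM in PLC/PRF/5 shSCD1 against 49.8 TPM in PLC/PRF/5 NTC. ATG14, which directs the lipid kinase to autophagy, had 19.4 TPM in Huh7 shSCD1 against 12.3 TPM in Huh7 NTC, and 14.1 TPM in PLC/PRF/5 shSCD1 against 10.2 TPM in PLC/PRF/5 NTC. NRBF2, another subunit of that complex, had log2 fold changes of 0.45 and 0.42, and its kinase-like subunit PIK3R4 went the other way in both lines, at -0.35 and -0.33.

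The 12 further receptors lay near 0, at a median of -0.02 in Huh7 and -0.01 in PLC/PRF/5. Of them 8 had opposite signs in the lines (66.7%, and 31% of all genes). PHB2 of the inner mitochondrial membrane stood at -0.12 in Huh7 and -0.24 in PLC/PRF/5 on the log2 scale, and BNIP3 of the outer membrane at -0.16 and -0.06. PINK1, the kinase that marks damaged mitochondria, stood at -0.02 and -0.20, and the adaptor TOLLIP at 0.26 and 0.01. Of the 12 genes of fusion with the lysosome, 9 were higher in both lines (75%, and 46.5% of all genes), 5 of 12 after median-ratio scaling. The SNARE SNAP29 had 80.5 TPM in Huh7 shSCD1 against 53.9 TPM in Huh7 NTC, and 29.3 TPM in PLC/PRF/5 shSCD1 against 22.6 TPM in PLC/PRF/5 NTC. The SNARE YKT6 stood at 0.40 in Huh7 and 0.26 in PLC/PRF/5, the adaptor PLEKHM1 at 0.34 and 0.38, and the tethering subunit VPS18 at 0.40 and 0.20.

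Of the 37 further lysosomal hydrolases, 24 were above 0 in Huh7 (64.9%, and 60.2% of all genes), with a median of 0.28. In PLC/PRF/5, 13 of 35 were above 0 (37.1%, and 63.4% of all genes), with a median of -0.16. Among the 35 that could be set side by side, 11 stood above 0 in both (31.4%, and 46.5% of all genes). Below 0 in both were 10 (28.6%, and 22.4% of all genes), and 14 had opposite signs (40%, and 31% of all genes). The difference between the lines was not tested. PPT1, a thioesterase that takes fatty acids off proteins, had 48.3 TPM in Huh7 shSCD1 against 111 TPM in Huh7 NTC, and 84.0 TPM in PLC/PRF/5 shSCD1 against 181 TPM in PLC/PRF/5 NTC. Its log2 fold changes were -1.18 and -1.10, with a limma adjusted p of 0.128 by Benjamini-Hochberg. The protease LGMN had 9.63 TPM in Huh7 shSCD1 against 32.7 TPM in Huh7 NTC, and 32.6 TPM in PLC/PRF/5 shSCD1 against 64.6 TPM in PLC/PRF/5 NTC, log2 fold changes of -1.67 and -0.96. LGMN was thus the lower of them in Huh7 and PPT1 in PLC/PRF/5. The sphingomyelinase SMPD1 was higher in both shSCD1 libraries, by 0.88 in Huh7 and 0.78 in PLC/PRF/5, as was the iduronidase IDUA by 1.02 and 0.57.

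Of the 20 genes of lysosomal membrane and sorting, 17 were above 0 in Huh7 (85%, and 60.2% of all genes) and 10 in PLC/PRF/5 (50%, and 63.4% of all genes), and 15 and 8 after median-ratio scaling. The sorting receptor SORT1 had 66.4 TPM in Huh7 shSCD1 against 42.3 TPM in Huh7 NTC, and 42.1 TPM in PLC/PRF/5 shSCD1 against 30.4 TPM in PLC/PRF/5 NTC. IGF2R, the receptor that carries hydrolases tagged with mannose phosphate, stood at 0.64 in Huh7 and 0.29 in PLC/PRF/5, and MFSD8 of the lysosomal membrane at 0.39 and 0.44. The membrane protein LAPTM4B was the lowest of the list in Huh7, with 357 TPM in Huh7 shSCD1 against 1018 TPM in Huh7 NTC, and 215 TPM in PLC/PRF/5 shSCD1 against 286 TPM in PLC/PRF/5 NTC.

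Of the nutrient-sensing genes around mTORC1, a kinase that restrains autophagy, 10 of 19 were higher in both lines (52.6%, and 46.5% of all genes) and 3 were lower in both (15.8%, and 22.4% of all genes), and after median-ratio scaling 4 were higher and 7 lower. The Rag GTPase RRAGA had 54.0 TPM in Huh7 shSCD1 against 70.2 TPM in Huh7 NTC, and 49.2 TPM in PLC/PRF/5 shSCD1 against 69.6 TPM in PLC/PRF/5 NTC, and LAMTOR4 of the complex that anchors it had log2 fold changes of -0.27 and -0.45. FNIP1, a partner of folliculin, had 15.3 TPM in Huh7 shSCD1 against 9.59 TPM in Huh7 NTC, and 23.4 TPM in PLC/PRF/5 shSCD1 against 18.6 TPM in PLC/PRF/5 NTC, and TSC2, which restrains mTORC1, stood at 0.29 in both lines. MTOR itself had 57.3 TPM in both Huh7 shSCD1 and Huh7 NTC, and 38.6 TPM in PLC/PRF/5 shSCD1 against 43.2 TPM in PLC/PRF/5 NTC.

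Of 16 further V-ATPase genes considered, 14 were above 0 in Huh7 (87.5%, and 60.2% of all genes) and 10 in PLC/PRF/5 (62.5%, and 63.4% of all genes), and after median-ratio scaling 10 and 6 were. The subunit ATP6V0A1 had 61.4 TPM in Huh7 shSCD1 against 46.7 TPM in Huh7 NTC, and 78.2 TPM in PLC/PRF/5 shSCD1 against 43.4 TPM in PLC/PRF/5 NTC. Its relative TCIRG1 stood at 0.51 in Huh7 and 0.22 in PLC/PRF/5, ATP6V1D of the catalytic sector at 0.50 and 0.21, and ATP6V0E2 at -0.56 and -0.27.

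**Figure D5:**
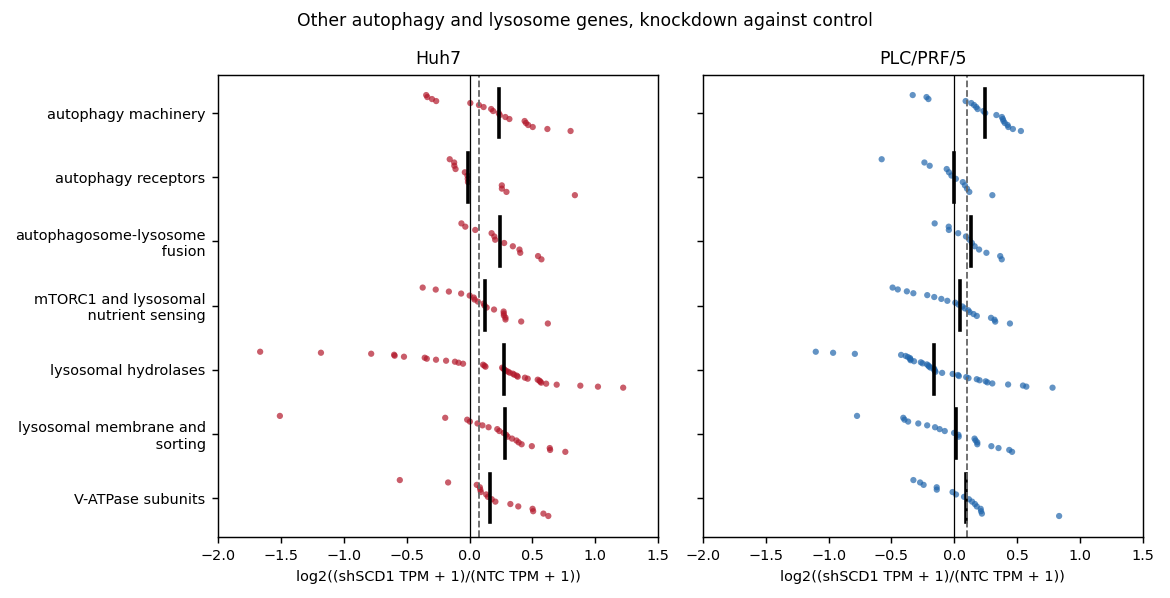
Log2 fold change of knockdown over control for the 7 further pathway lists in Huh7 and in PLC/PRF/5, with 1 point per gene a bar at each median and a dashed line at the median of all genes. The lysosomal hydrolases have their bar at 0.28 in Huh7 and at -0.16 in PLC/PRF/5, and the autophagy machinery at 0.23 and 0.25.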

How the data were processed

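Transcript levels of 4 bulk RNA-seq libraries were used as the TPM that the authors deposited for each gene. Per the submitters' processing notes, cutadapt, RSEM 1.2.21 and build hg19 were used; read depth is not given in the sources used here, and TPM keeps none, so no counting interval is given. From the TPM, log2 fold changes with a pseudocount of 1 were computed for each line, and limma 3.58.1 in R 4.3.3 with a mean-variance trend was fitted on arm and cell line over 13813 genes with at least 1 TPM in at least 2 libraries, with Benjamini-Hochberg adjustment over all of them. How well the fit recovers planted fold changes was checked on simulated data, which does not check its p-values for these libraries. Replicate libraries are absent, so p-values measure only the spread left between these libraries. The 50 genes, the wider lists and the markers were chosen with earlier results of these data known. Genes named in each direction are the 6 with the largest differences per line and in both lines, the 8 with the largest differences between lines, and the 4 of each wider list whose smaller fold change over the lines, in a shared direction, was largest; the listed genes are given besides in full, and PIK3R4 and MTOR were named after their values were seen. KIAA0226 and FAM134B stand for RUBCN and RETREG1. Shared 31-base words come from GENCODE release 29 transcripts and promoters from RefSeq.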

Additional observations from a re-analysis of the deposited data

Results flagged for a closer look

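CTSS, a cysteine cathepsin of the wider list, had opposite signs in the lines. It had 10.0 TPM in Huh7 shSCD1 against 3.73 TPM in Huh7 NTC, a log2 fold change of 1.22, and 6.34 TPM in PLC/PRF/5 shSCD1 against 11.7 TPM in PLC/PRF/5 NTC, a log2 fold change of -0.79. The difference between the lines was not tested. Each line holds 1 library per arm.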

How the results depend on the processing

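With a pseudocount of 0.1, 1 gene was at least 2-fold lower in Huh7 and 2 were at least 1.5-fold lower in PLC/PRF/5. With a pseudocount of 5, 0 genes were at least 1.5-fold lower and 1 was at least 2-fold higher in Huh7, and with at least 5 TPM 0 genes were 1.5-fold lower in Huh7. After median-ratio scaling, 4 genes were at least 1.5-fold and 1 at least 2-fold higher in Huh7, 1 was at least 1.5-fold higher and 2 lower in PLC/PRF/5, the median log2 fold change in PLC/PRF/5 was -0.0787, and at an unadjusted p under 0.05 in limma 4 genes were higher and 5 lower across the lines. That count of higher genes was 5 without the variance trend and 1 without the cell line term, where 0 were lower. Without the arm term 9 genes were higher and 12 lower in Huh7 than in PLC/PRF/5 at limma's adjusted p under 0.05. The cause of these moves was not tested, and the shares of all genes under these alternatives are not given. The 89 other summary values stayed within 1.5 times for counts and within 0.1 on the log2 scale for medians, although the median in Huh7 was 0.13 after median-ratio scaling. The 184 other values of single genes moved by less than a factor of 1.5, which can still cross a size limit: TFEB in Huh7 stood at -0.44 with a pseudocount of 5, and MAP1LC3B at 0.52 in Huh7 and 0.47 in PLC/PRF/5 after scaling. CTSZ in PLC/PRF/5 and MITF in Huh7, both near 0, moved with a pseudocount of 0.1. No paired analysis was possible by replicate number because each group holds 1 library and the labels give no such numbers; the cell line is the block of the test across the lines. No library could be left out within a line, and the values without the other line are those of each line alone. Depth is unknown, so precision at low TPM cannot be stated.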
